A study of Arabidopsis thaliana with 27 samples.

Results

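The genes described here are 10 aquaporins of Arabidopsis thaliana, chosen by name out of the 33612 genes of the deposited count table. They fall into 2 seed forms, TIP3;1 (ALPHA-TIP, AT1G73190) and TIP3;2 (BETA-TIP, AT1G17810), and 8 vegetative forms. The vegetative forms comprise 3 tonoplast genes, TIP1;1 (GAMMA-TIP, AT2G36830), TIP1;2 (GAMMA-TIP2, AT3G26520) and TIP2;1 (DELTA-TIP, AT3G16240). They also comprise 5 plasma membrane genes, PIP1;1 (AT3G61430), PIP1;2 (AT2G45960), PIP2;1 (AT3G53420), PIP2;2 (AT2G37170) and PIP2;7 (AT4G35100). The 5 TIPs are called by their older names, as RefSeq lists them, in the text that follows, and by these systematic names in the plots. Poly(A) RNA was sequenced from whole seeds of the hid1 mutant, which lacks transcripts of the noncoding RNA HID1, of the phyB mutant, a mutant of the photoreceptor phytochrome B, and of the wild type Col-0 (WT). All seeds had been dried for about 2 months, met white light for 1 h, and then received red light for 5 min at 20 μmol m-2 s-1, the setting that activates phytochrome B. They were then kept in darkness and sampled at 12, 24 and 48 h, which gave 9 groups of 3 biological replicates, or 27 libraries. Parent plants stood side by side and their seeds were collected on 1 day. The labels name no mutant alleles.

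Aquaporins are membrane channels through which water and some small solutes move down their gradients. Tonoplast intrinsic proteins (TIPs) sit in the membrane of the vacuole, and plasma membrane intrinsic proteins (PIPs) at the cell surface. In Arabidopsis the TIP3 pair is known from the protein storage vacuoles of the maturing and dry seed. TIP1 and TIP2 members mark the large lytic vacuole of growing vegetative cells, and PIPs are abundant in tissues where cells expand.

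Library totals lay between 14750212 and 26293148 counts. HID1 had at most 1 count in each of the 9 hid1 libraries, 171 to 361 counts in the 9 phyB libraries and 243 to 500 counts in the 9 WT libraries. PHYB transcripts were still present in the phyB libraries, at 54.9 to 117 CPM (counts scaled to a library of 1e+06), against 93.7 to 126 CPM in WT, so that gene is no strict check of the labels. The phyB libraries at 12 h stood apart: mitochondrial genes took 0.0178 to 0.0202% of their counts, against 0.0764 to 0.16% in the hid1 and WT libraries of that time. At 24 h the share was low in every genotype (0.0195 to 0.0246% in phyB, 0.0151 to 0.0234% in hid1 and 0.0172 to 0.028% in WT), so exchanging the phyB labels of 12 h and 24 h would not remove that gap. Across tested genes, WT at 12 h correlated at 0.971 with phyB at 24 h and at 0.951 with phyB at 12 h, WT at 24 h correlated at 0.944 and 0.942, and phyB at 48 h correlated at 0.959 with phyB at 24 h and at 0.906 with phyB at 12 h. Whether these labels are right was not tested, and results on phyB at 12 h and 24 h are also given with them exchanged where that turns the direction. Of the marker lists, 5 seed identity genes (CRA1, SESA3, OLEO1, EM1 and EM6) summed to 181700.0 to 208800.0 CPM in phyB at 48 h, against 4143 to 7160 CPM in WT at 48 h. The same sum was 28350.0 to 36460.0 CPM in hid1 at 48 h. Markers of the endosperm (EXPA2, MAN7, NCED6, EPR1 and ZOU) summed to 3056 to 3212 CPM in hid1 and 14220.0 to 16690.0 CPM in phyB at 48 h, against 757 to 922 CPM in WT. Of the 4 tested members of the endosperm list, 4 were higher and 0 lower in hid1 than in WT at 48 h, against 36.3% and 43.0% of all genes. In phyB 2 were higher and 2 lower than in WT, against 40.0% and 49.4%. Between hid1 and phyB 2 were higher and 2 lower in hid1, against 41.0% and 37.9%. The latter splits lie near those of all genes. Seed coat markers (BAN, TT10 and TT12) never exceeded 0.274 CPM in any library. The libraries are bulk seed RNA, so fewer cells of a type and less RNA per cell cannot be told apart.

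At 48 h both seed forms were higher, and GAMMA-TIP2 lower, in each mutant than in WT. The sequences before the gene start are therefore shown for both seed forms and for GAMMA-TIP2, the vegetative TIP with the highest mean count. They are the 250 bases before the annotated start in the RefSeq copy of the genome (TAIR10.1), at chr1:27521694-27521943 on the plus strand for ALPHA-TIP, chr1:6129775-6130024 on the plus strand for BETA-TIP and chr3:9723905-9724154 on the minus strand for GAMMA-TIP2. The genes begin at the next base: ALPHA-TIP has 3 exons over chr1:27521944-27523332, BETA-TIP has 3 exons over chr1:6130025-6131627, and GAMMA-TIP2 has 2 exons over chr3:9722443-9723904. Each is written 5′ to 3′ in the direction of its gene. Capitals mark matches, on either strand, to CATGCA, the core of the RY element bound by B3 factors such as ABI3, and to ACGTG, the core of the element bound by bZIP factors such as ABI5.
ALPHA-TIP: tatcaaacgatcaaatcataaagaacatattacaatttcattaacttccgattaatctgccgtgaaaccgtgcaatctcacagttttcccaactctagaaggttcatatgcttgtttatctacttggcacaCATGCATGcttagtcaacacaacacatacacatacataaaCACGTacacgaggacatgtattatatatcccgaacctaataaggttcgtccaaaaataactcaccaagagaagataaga
BETA-TIP: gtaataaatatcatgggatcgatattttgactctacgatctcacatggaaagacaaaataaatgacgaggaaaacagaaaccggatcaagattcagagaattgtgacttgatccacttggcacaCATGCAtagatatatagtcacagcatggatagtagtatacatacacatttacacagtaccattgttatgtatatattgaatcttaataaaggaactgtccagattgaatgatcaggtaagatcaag
GAMMA-TIP2: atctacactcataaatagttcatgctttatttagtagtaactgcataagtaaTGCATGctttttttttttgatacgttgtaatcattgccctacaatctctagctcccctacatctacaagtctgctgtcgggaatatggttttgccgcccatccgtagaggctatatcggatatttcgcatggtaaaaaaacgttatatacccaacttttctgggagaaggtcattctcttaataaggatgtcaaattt
The ALPHA-TIP window held 2 CATGCA matches that overlap on opposite strands, beginning 119 and 117 bases before the start, and 1 ACGTG match at 79 bases. BETA-TIP held 1 CATGCA match at 126 bases and no ACGTG match. Of 27443 promoter windows of this length, 8.43% held CATGCA, 22.9% held ACGTG and 2.22% held both. CATGCA also occurred once each in the windows of GAMMA-TIP2, PIP1;1 and PIP2;7, and ACGTG once in that of GAMMA-TIP, so neither motif divided the seed forms from the vegetative forms. The longest run shared by the 2 seed windows was acttggcacacatgcat, 17 bases that begin 129 bases before the start of ALPHA-TIP and 136 bases before that of BETA-TIP. Only these 2 of the 27443 windows held that run, which was picked as the longest run they share. Other pairs of windows were not searched, so this count does not mark the run as particular to the seed forms. A match is a stretch of letters here, and no binding was measured. Between the coding sequences, ALPHA-TIP and BETA-TIP shared 78.0% of aligned positions and GAMMA-TIP and GAMMA-TIP2 shared 81.1%.

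The seed forms went down through the time course in WT seeds and stayed far higher in both mutants at 48 h. In the count table ALPHA-TIP had 1390.0, 1873 and 1438 CPM in hid1 at 12 h, 366, 434 and 485 CPM at 24 h and 299, 333 and 246 CPM at 48 h. In phyB it had 1225, 1199 and 1149 CPM at 12 h, 2412, 2459.6 and 2488 CPM at 24 h and 2565, 2111 and 2344 CPM at 48 h. In WT it had 1561, 1762 and 1676 CPM at 12 h, 247, 305 and 267 CPM at 24 h and 32.9, 54.8 and 42.1 CPM at 48 h. At 48 h the 3 genotypes did not overlap, with phyB highest and WT lowest. Each SE of a log2 difference given from here on was computed back from the F value of the test. ALPHA-TIP was 6.75-fold higher in hid1 than in WT at 48 h (log2 difference 2.76 ± 0.15 SE, adjusted p = 1.86e-15 in edgeR's quasi-likelihood test) and 54.0-fold higher in phyB than in WT (log2 difference 5.76 ± 0.17 SE, adjusted p = 4.24e-22). With scaling by total counts the phyB difference was 33.6-fold for ALPHA-TIP (log2 5.07) and 23.2-fold for BETA-TIP (log2 4.54). That scaling shifts the median log2 difference of all genes between phyB and WT at 48 h by -0.679, and the vegetative forms with a fitted fold lay at least 1.56 times further below WT under it than the folds given here for them. At 24 h it was 1.57-fold higher in hid1 than in WT (log2 difference 0.65 ± 0.14 SE, adjusted p = 0.00132) and 8.99-fold higher in phyB (log2 difference 3.17 ± 0.15 SE, adjusted p = 2.11e-16). At 12 h the hid1 and WT libraries overlapped (log2 difference -0.09 ± 0.14 SE, adjusted p = 0.743), while phyB was 1.40-fold lower than WT (log2 difference -0.48 ± 0.14 SE, adjusted p = 0.00279). With the phyB labels exchanged, ALPHA-TIP in phyB at 12 h was higher than in WT (log2 difference 0.56, adjusted p = 0.000954 in edgeR).

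BETA-TIP followed the same order of genotypes at 24 h and 48 h, with a different course over time. It had 394, 504 and 427 CPM in hid1 at 12 h, 125, 153 and 151 CPM at 24 h and 272, 299 and 219 CPM at 48 h. In phyB it had 204, 204 and 204 CPM at 12 h, 820.2, 861 and 933 CPM at 24 h and 2173, 1878 and 2076 CPM at 48 h. In WT it had 667, 627 and 663 CPM at 12 h, 71.9, 97.8 and 81.7 CPM at 24 h and 40.5, 69.2 and 54.3 CPM at 48 h. The groups did not overlap at any time. At 48 h it was 4.82-fold higher in hid1 than in WT (log2 difference 2.27 ± 0.14 SE, adjusted p = 4.71e-14, edgeR) and 37.3-fold higher in phyB (log2 difference 5.22 ± 0.16 SE, adjusted p = 1.16e-21). At 24 h it was 1.70-fold higher in hid1 (log2 difference 0.77 ± 0.14 SE, adjusted p = 0.000226) and 10.4-fold higher in phyB than in WT (log2 difference 3.38 ± 0.15 SE, adjusted p = 5.64e-17). At 12 h it was lower in both mutants, 1.48-fold in hid1 (log2 difference -0.56 ± 0.13 SE, adjusted p = 0.00489) and 3.20-fold in phyB (log2 difference -1.68 ± 0.14 SE, adjusted p = 2.57e-11). With the phyB labels exchanged the phyB difference at 12 h was 0.42 on the log2 scale (edgeR adjusted p = 0.00885). Between hid1 and phyB at 12 h, ALPHA-TIP (log2 difference 0.40) and BETA-TIP (1.11) were higher in hid1, and with exchanged labels the differences were -0.65 and -0.98. The ALPHA-TIP call between hid1 and phyB at 12 h was lost without hid1 replicate 2 (edgeR adjusted p = 0.133) and with scaling by total counts (adjusted p = 0.118).

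**Figure D1:**
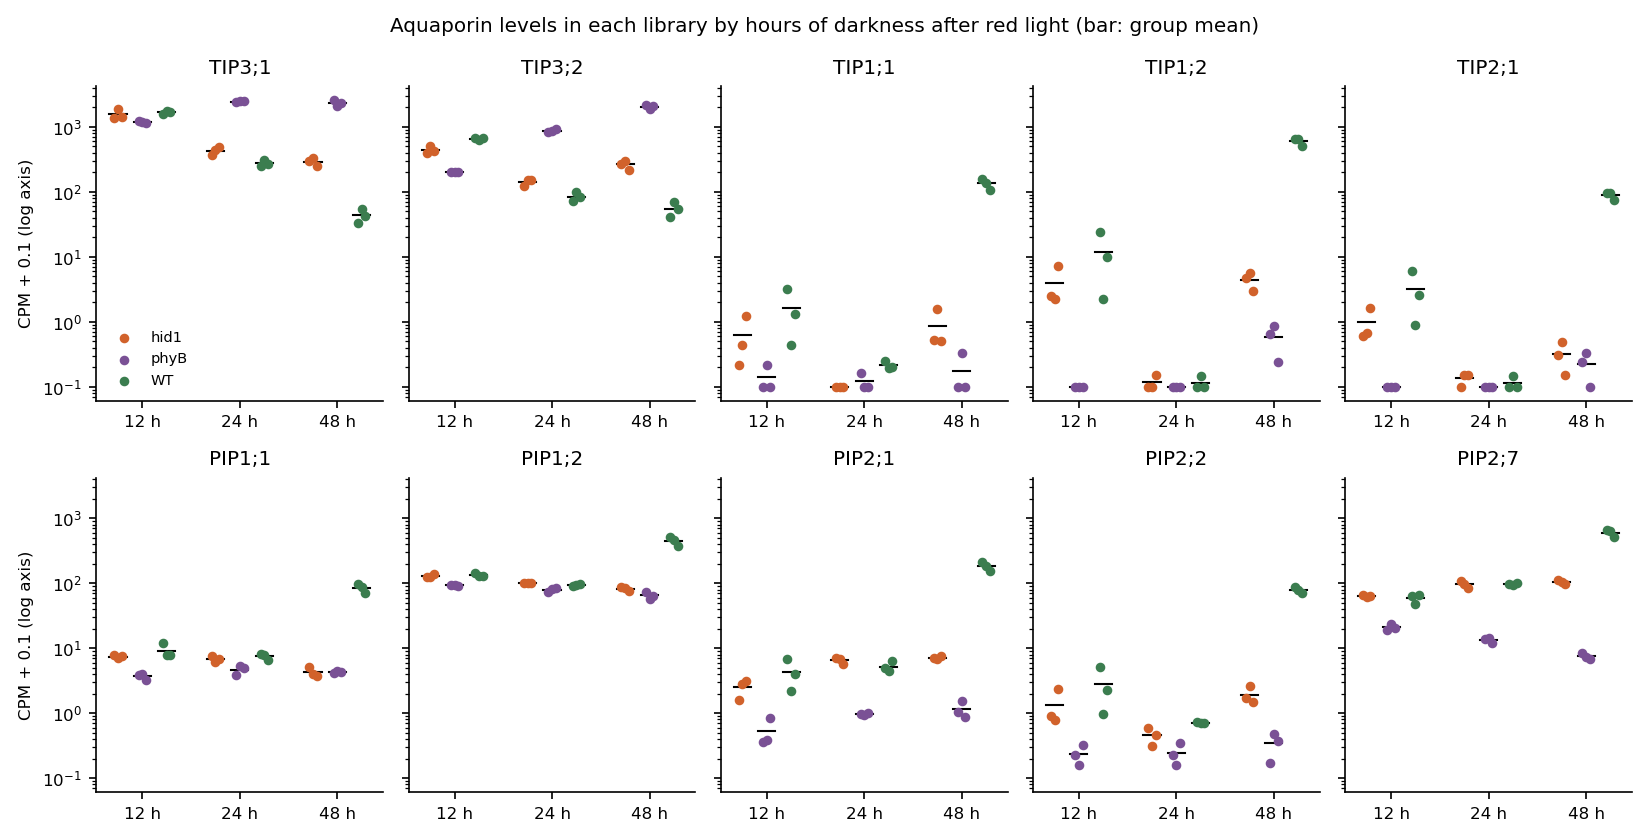
Level of each of the 10 aquaporins in every library, as CPM + 0.1 on a log axis, at 12, 24 and 48 h of darkness, with 1 point per library and a bar at each mean of 3. At 48 h all 8 vegetative forms are highest in WT and both seed forms are lowest in WT.

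The seed forms also changed relative to each other. Per transcript length, the ratio of ALPHA-TIP to BETA-TIP was 3.48, 3.66 and 3.32 in hid1 at 12 h, 2.89, 2.80 and 3.17 at 24 h, and 1.08, 1.10 and 1.11 at 48 h. In phyB it was 5.91, 5.80 and 5.55 at 12 h, 2.90, 2.81 and 2.63 at 24 h, and 1.16, 1.11 and 1.11 at 48 h. In WT it was 2.31, 2.77 and 2.49 at 12 h, 3.39, 3.07 and 3.22 at 24 h, and 0.801, 0.780 and 0.764 at 48 h. ALPHA-TIP was thus the more abundant form in every library at 12 h and 24 h, and the pair came close to equal in both mutants at 48 h, while BETA-TIP was the more abundant in WT. Between 24 h and 48 h the 2 genes did not move alike. In hid1 BETA-TIP rose 1.84-fold (log2 difference 0.88 ± 0.14 SE, adjusted p = 3.45e-06, edgeR) and ALPHA-TIP fell 1.47-fold (log2 difference -0.55 ± 0.14 SE, adjusted p = 0.00115). In phyB BETA-TIP rose 2.34-fold (log2 difference 1.23 ± 0.13 SE, adjusted p = 6.86e-09, edgeR), while the ALPHA-TIP difference was -0.07 ± 0.14 SE (adjusted p = 0.701). With scaling by total counts ALPHA-TIP in phyB was lower at 48 h than at 24 h (log2 -0.56, edgeR adjusted p = 0.000247), and with exchanged labels it was higher (log2 0.97, edgeR adjusted p = 3.36e-07). In WT both fell, ALPHA-TIP by 6.30-fold (log2 difference -2.66 ± 0.15 SE, adjusted p = 2.51e-15, edgeR) and BETA-TIP by 1.53-fold (log2 difference -0.62 ± 0.14 SE, adjusted p = 0.00024). Both genes overlap a neighbour on the other strand, ALPHA-TIP over 290 bases with AT1G73200 and BETA-TIP over 91 bases with AT1G17820. Without a stated strand setting reads from the overlap cannot be assigned. Group means of AT1G73200 ran between 24.4 and 46.9 CPM, the same size as ALPHA-TIP in WT at 48 h, which is uncertain there, and those of AT1G17820 ran between 10.9 and 20.7 CPM. A further antisense locus, AT1G05333, overlaps BETA-TIP over 564 bases and was not analysed here.

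**Figure D2:**
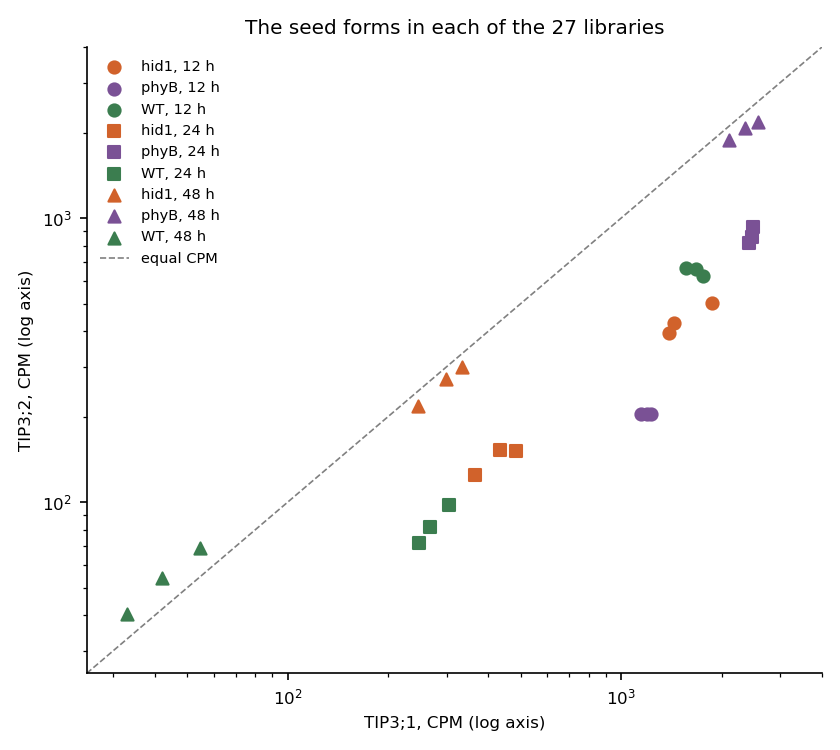
BETA-TIP against ALPHA-TIP in each of the 27 libraries, both as CPM on log axes, with genotype by colour and time by marker and a dashed line at equal CPM. The 48 h libraries lie close to that line, the WT ones above it, and the 12 h and 24 h libraries lie below it.

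The vegetative TIPs gave the opposite picture, with high levels in WT at 48 h only. GAMMA-TIP2 had 2.38, 2.12 and 7.07 CPM in hid1 at 12 h, 0, 0 and 0.0518 CPM at 24 h and 4.54, 5.58 and 2.84 CPM at 48 h. In phyB no library had a count of it at 12 h or 24 h, and the 48 h libraries had 0.547, 0.753 and 0.139 CPM. In WT it had 24.0, 2.16 and 9.64 CPM at 12 h, 0, 0.0463 and 0 CPM at 24 h and 647, 660.1 and 499 CPM at 48 h. The WT libraries at 48 h were thus above every other library by a wide margin. At 48 h GAMMA-TIP2 was 139-fold lower in hid1 than in WT (log2 difference -7.12 ± 0.41 SE, adjusted p = 1.89e-13, edgeR) and 1255-fold lower in phyB (log2 difference -10.29 ± 0.57 SE, adjusted p = 2.6e-14). GAMMA-TIP had 0.424, 1.46 and 0.399 CPM in hid1 at 48 h, 0, 0.226 and 0 CPM in phyB and 159, 139 and 108 CPM in WT. It was 179-fold lower in hid1 than in WT (log2 difference -7.49 ± 0.31 SE, adjusted p = 3.94e-17, edgeR). The phyB libraries at 48 h held 3 counts of GAMMA-TIP in all, against 10834 counts in WT, a level 1930.0-fold lower by counting (95% interval 661 to 9370.0, counting error only). DELTA-TIP had 0.212, 0.388 and 0.0498 CPM in hid1 at 48 h, 0.137, 0.226 and 0 CPM in phyB and 96.0, 96.4 and 75.3 CPM in WT. It was 398-fold lower in hid1 (log2 difference -8.64 ± 0.39 SE, adjusted p = 1.9e-15, edgeR) and 716-fold lower in phyB (log2 difference -9.48 ± 0.47 SE, adjusted p = 2.15e-15). DELTA-TIP overlaps AT3G16250 on the other strand over 120 bases, which reached at most 6.53 CPM in a group, and AT3G03265 over 445 bases, which was not analysed here.

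The vegetative TIPs were low, but not uniformly so, at 12 h. GAMMA-TIP had 0.114, 0.343 and 1.14 CPM in hid1, 0, 0.115 and 0 CPM in phyB and 3.05, 0.342 and 1.23 CPM in WT at 12 h. DELTA-TIP had 0.511, 0.572 and 1.53 CPM in hid1, no count in phyB and 5.94, 0.797 and 2.45 CPM in WT at 12 h. Replicates of 1 group therefore spanned several-fold, and hid1 and WT overlapped for all 3 genes. GAMMA-TIP2 (log2 difference -1.61 ± 0.49 SE, adjusted p = 0.0304) and DELTA-TIP (-1.80 ± 0.50 SE, adjusted p = 0.0174) nevertheless passed edgeR's test between hid1 and WT at 12 h. Without WT replicate 1 the adjusted p was 0.515 for GAMMA-TIP2 and 0.305 for DELTA-TIP (edgeR), and neither passed without hid1 replicate 1 or without hid1 replicate 2, nor in DESeq2 (adjusted p = 0.172 and 0.125). Between hid1 and WT the GAMMA-TIP difference was -1.50 ± 0.64 SE (edgeR adjusted p = 0.127). The 3 vegetative TIPs together reached 0.364, 0.367 and 1.18% of their WT 48 h level in the hid1 libraries at 12 h and 3.99, 0.4 and 1.61% in the WT libraries. A set of 245 other genes, chosen on these libraries as high in WT at 48 h and near 0 in WT at 24 h, moved with them, at 0.0613, 0.0733 and 0.16% of its WT 48 h level in the hid1 libraries and 0.559, 0.0783 and 0.265% in the WT libraries. The part of that set in the 12 h values was not tested. In phyB at 12 h GAMMA-TIP2 was at least 208-fold and DELTA-TIP at least 53.4-fold lower than in WT when its 3 libraries together are given 3 counts as a floor, and GAMMA-TIP was 40.3-fold lower (95% counting interval 10.8 to 338). By 24 h all 3 genes were near 0 in all genotypes: the summed counts over a group of 3 libraries were at most 2 in hid1, 1 in phyB and 7 in WT.

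The PIPs were already present in the early libraries and rose in WT at 48 h. PIP2;7, the PIP with the highest level per length in WT at 48 h, had 66.3, 60.9 and 64.7 CPM in hid1 at 12 h, 109, 96.4 and 83.6 CPM at 24 h and 112, 105 and 96.8 CPM at 48 h. In phyB it had 18.9, 23.5 and 20.2 CPM at 12 h, 13.5, 14.5 and 11.8 CPM at 24 h and 8.27, 7.23 and 6.82 CPM at 48 h. In WT it had 62.6, 48.4 and 66.3 CPM at 12 h, 96.5, 93.9 and 99.9 CPM at 24 h and 650.5, 635 and 509 CPM at 48 h. The phyB libraries lay below all hid1 and WT libraries at every time, and hid1 overlapped WT at 12 h and 24 h. At 48 h PIP2;7 was 5.71-fold lower in hid1 than in WT (log2 difference -2.51 ± 0.11 SE, adjusted p = 8.54e-18, edgeR) and 80.3-fold lower in phyB (log2 difference -6.33 ± 0.14 SE, adjusted p = 1.48e-24). In phyB it was also lower than in WT at 12 h (log2 difference -1.50 ± 0.12 SE, adjusted p = 9.95e-12, edgeR) and at 24 h (log2 difference -2.86 ± 0.12 SE, adjusted p = 4.15e-17), with no overlap. With the phyB labels exchanged its change in phyB between 12 h and 24 h was a rise of 0.65 on the log2 scale.

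PIP1;2 had the smallest rise of the PIPs in WT between 24 h and 48 h (log2 difference 2.24 ± 0.09 SE, adjusted p = 1.73e-18, edgeR). It had 125, 124 and 137 CPM in hid1 at 12 h, 102, 103 and 102 CPM at 24 h and 87.7, 83.7 and 76.1 CPM at 48 h. In phyB it had 92.9, 92.7 and 92.4 CPM at 12 h, 73.8, 81.5 and 84.7 CPM at 24 h and 73.9, 57.2 and 64.8 CPM at 48 h. In WT it had 144, 130.2 and 129.9 CPM at 12 h, 91.0, 94.7 and 96.99 CPM at 24 h and 508, 456 and 372 CPM at 48 h. It was 5.40-fold lower in hid1 (log2 difference -2.43 ± 0.09 SE, adjusted p = 6.17e-19, edgeR) and 6.82-fold lower in phyB than in WT at 48 h (log2 difference -2.77 ± 0.09 SE, adjusted p = 8.36e-21). At 24 h it was 1.18-fold lower in phyB than in WT (log2 difference -0.24 ± 0.09 SE, adjusted p = 0.0215, edgeR), a call that did not hold without WT replicate 3 (adjusted p = 0.0657) or without phyB replicate 1 (adjusted p = 0.116).

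PIP1;1, PIP2;1 and PIP2;2 had few counts in all groups but WT at 48 h. PIP1;1 had 5.05, 3.93 and 3.59 CPM in hid1 at 48 h, 4.03, 4.37 and 4.18 CPM in phyB and 96.6, 86.6 and 70.6 CPM in WT. PIP2;1 had 6.95, 6.75 and 7.48 CPM in hid1 at 48 h, 0.957, 1.43 and 0.766 CPM in phyB and 209, 183 and 154 CPM in WT. PIP2;2 had 1.61, 2.48 and 1.40 CPM in hid1 at 48 h, 0.0684, 0.376 and 0.279 CPM in phyB and 86.6, 79.9 and 71.5 CPM in WT. In each case WT stood above both mutants without overlap, and hid1 overlapped phyB for PIP1;1. PIP1;1 was 20.0-fold lower in hid1 (log2 difference -4.32 ± 0.14 SE, adjusted p = 3.6e-20, edgeR) and 20.2-fold lower in phyB (log2 difference -4.34 ± 0.15 SE, adjusted p = 1.49e-20) than in WT. PIP2;1 was 25.8-fold lower in hid1 (log2 difference -4.69 ± 0.17 SE, adjusted p = 4.18e-19, edgeR) and 174-fold lower in phyB (log2 difference -7.44 ± 0.24 SE, adjusted p = 3.39e-21). PIP2;2 was 43.4-fold lower in hid1 (log2 difference -5.44 ± 0.25 SE, adjusted p = 5.66e-17, edgeR) and 326-fold lower in phyB (log2 difference -8.35 ± 0.37 SE, adjusted p = 5.28e-18). At 12 h and 24 h PIP1;1 stayed between 3.13 and 11.7 CPM, PIP2;1 between 0.261 and 7.08 CPM and PIP2;2 between 0.0574 and 4.98 CPM over all libraries. PIP2;1 was lower in phyB than in WT at 12 h (log2 difference -3.29 ± 0.44 SE, adjusted p = 2.25e-07, edgeR) and at 24 h (log2 difference -2.53 ± 0.36 SE, adjusted p = 5.86e-07). PIP2;2 is uncertain, since 7.78% of the 150-base windows of its transcript also occur in another aquaporin, and its coding sequence shares 94.8% of positions with PIP2;3. None of the other 9 genes shared such a window.

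Counted over the 10 genes, hid1 differed from WT for a few at 12 h and 24 h and for all 10 at 48 h. At 12 h 0 of the 10 were higher in hid1 and 3 lower in edgeR's test (adjusted p under 0.05), against 7.49% and 5.91% of the 20465 genes tested. The 3 were BETA-TIP, GAMMA-TIP2 and DELTA-TIP, and the count ran between 1 and 6 when 1 replicate was left out: 1 without WT replicate 1, 1 without hid1 replicate 1 or 2, 6 without WT replicate 2 and 5 without hid1 replicate 3. At 24 h 2 were higher and 0 lower in hid1, against 8.46% and 6.87% of all genes, and the 2 were the seed forms. At 48 h 2 were higher and 8 lower, against 36.3% and 43.0% of all genes. The median log2 difference of the 8 vegetative forms was -5.06 at 48 h, against -0.06 over all genes tested. The change of the hid1 difference between 12 h and 48 h passed the interaction test for 2 genes upward and 8 downward, against 31.2% and 32.6% of all genes.

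In phyB 0 of the 10 were higher than in WT and 10 lower at 12 h, against 30.0% and 34.2% of all genes. With the phyB labels exchanged 2 were higher and 8 lower at 12 h, counts given without the shares of all genes under that exchange. At 24 h 2 were higher and 4 lower, against 31.8% and 34.6%, and at 48 h 2 were higher and 8 lower, against 40.0% and 49.4%. At 48 h the median of the 8 vegetative forms was -7.90, against -0.24 over all genes. The phyB difference changed between 12 h and 48 h for 2 genes upward and 5 downward, against 38.5% and 41.0% of all genes, and no value is given for the 3 vegetative TIPs, whose counts in phyB at 12 h were at or under that floor. Both mutants were set against the same WT libraries, so they were also set against each other. Between hid1 and phyB 10 genes were higher in hid1 and 0 lower at 12 h, against 33.9% and 29.5% of all genes. At 24 h 4 were higher in hid1 and 2 lower, against 34.3% and 31.5%, and without phyB replicate 1 PIP1;1 was not among the 4 (edgeR adjusted p = 0.0536). At 48 h 6 were higher and 2 lower, against 41.0% and 37.9%. The 2 genes lower in hid1 at 24 h and 48 h were the seed forms, and at 48 h DELTA-TIP (log2 difference 0.85 ± 1.53 SE, adjusted p = 0.623, edgeR) and PIP1;1 (log2 difference 0.01 ± 0.20 SE, adjusted p = 0.974) did not pass, though with scaling by total counts PIP1;1 did (log2 difference 0.68, adjusted p = 0.00159). At 48 h PIP2;7 was 14.1-fold higher in hid1 than in phyB (log2 difference 3.81 ± 0.14 SE, adjusted p = 1.84e-19, edgeR) and ALPHA-TIP 8.001-fold lower (log2 difference -3.00 ± 0.15 SE, adjusted p = 1.34e-16), folds that were 22.4 and 5.02 with scaling by total counts.

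**Figure D3:**
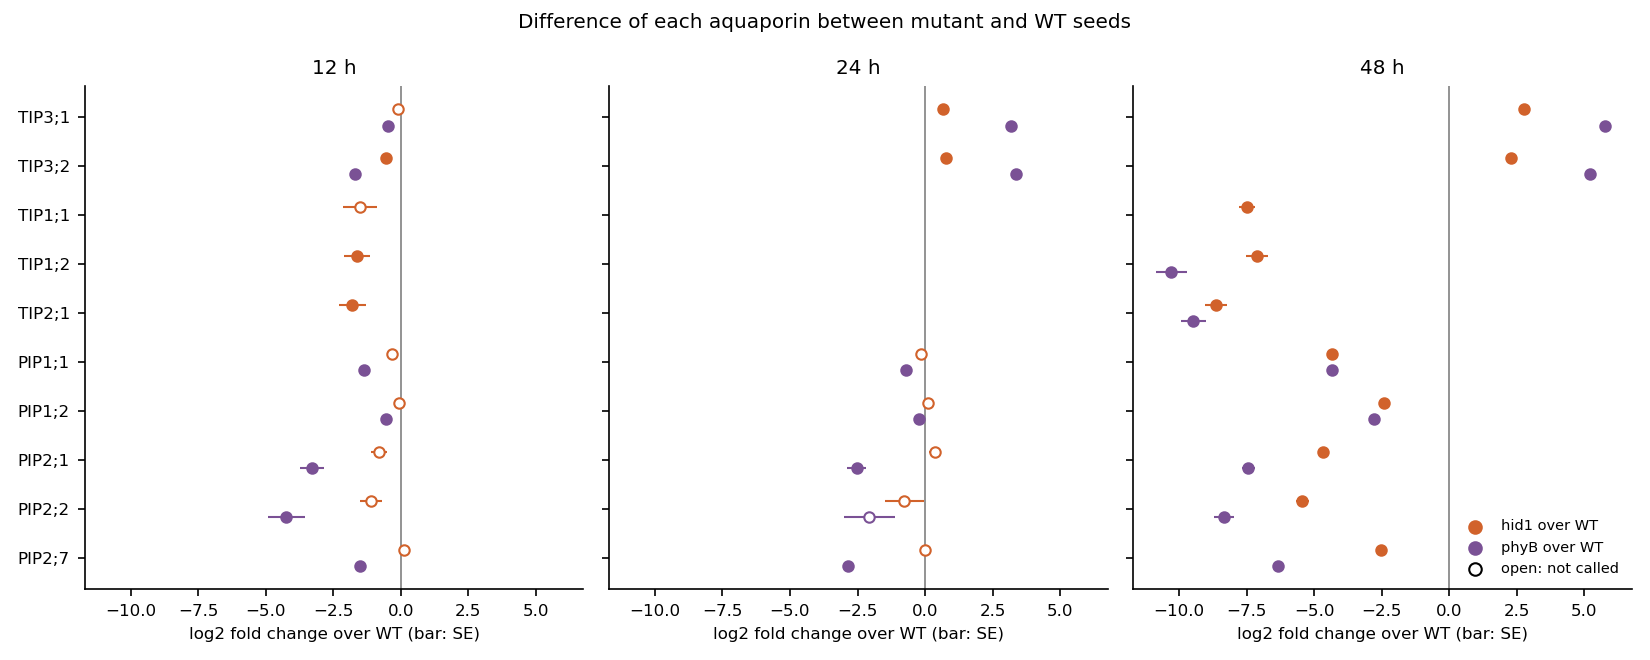
Log2 fold change of each aquaporin in hid1 over WT and in phyB over WT at 12, 24 and 48 h. Bars give the SE computed back from the F value of the test, and filled points passed edgeR's test. Genes with 3 or fewer counts in a group have no point, and at 48 h the seed forms lie right of 0 and all plotted vegetative forms left of it.

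Over time in WT the seed forms fell at both steps, and all 8 vegetative forms rose at the second. Between 12 h and 24 h 1 of the 10 genes was higher at 24 h and 7 lower, against 33.1% and 32.4% of all genes. PIP2;7 was the gene that rose (log2 difference 0.71 ± 0.11 SE, adjusted p = 1.32e-06, edgeR), ALPHA-TIP fell 6.11-fold (log2 difference -2.61 ± 0.14 SE, adjusted p = 8.28e-15) and BETA-TIP 7.78-fold (log2 difference -2.96 ± 0.14 SE, adjusted p = 7.02e-16). Between 24 h and 48 h 8 were higher at 48 h and 2 lower, against 44.2% and 38.0%. The 8 were all the vegetative forms: GAMMA-TIP rose 1131-fold (log2 difference 10.14 ± 0.40 SE, adjusted p = 1.11e-17, edgeR), PIP2;1 35.7-fold (log2 difference 5.16 ± 0.18 SE, adjusted p = 8.89e-20) and PIP2;7 6.19-fold (log2 difference 2.63 ± 0.11 SE, adjusted p = 2.26e-18). GAMMA-TIP2 had 48207 counts in WT at 48 h against 1 count at 24 h over 3 libraries each, a ratio with a 95% counting interval of 6780.0 to 1490000.

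In hid1 3 of the 8 vegetative forms rose between 24 h and 48 h, near the 31.5% of all genes that rose there. In WT all 8 rose, against 44.2% of all genes. In hid1 2 genes were higher at 24 h than at 12 h and 7 lower, against 30.0% and 28.9% of all genes. In hid1 4 were higher at 48 h than at 24 h and 3 lower, near the 31.5% and 28.4% of all genes. The 4 were BETA-TIP, GAMMA-TIP, GAMMA-TIP2 and PIP2;2. Of these GAMMA-TIP2 rose to 4.54, 5.58 and 2.84 CPM at 48 h, against 0, 0 and 0.0518 CPM at 24 h, still far under the WT level. In phyB 2 were higher at 24 h than at 12 h and 2 lower, against 27.7% and 27.2%, and 1 was higher at 48 h than at 24 h and 2 lower, against 31.0% and 30.8%. The 2 lower ones at both steps were PIP1;2 and PIP2;7, and the rises were those of ALPHA-TIP and BETA-TIP in the first step and of BETA-TIP in the second. By edgeR, the PIP1;2 fall in phyB between 12 h and 24 h did not pass without 5 of the 6 replicates in turn (adjusted p between 0.0804 and 0.206), nor that between 24 h and 48 h without phyB 48 h replicate 2 (adjusted p = 0.0713). The fall of PIP2;2 in hid1 between 12 h and 24 h did not pass without hid1 12 h replicate 3 (edgeR adjusted p = 0.248), nor that of PIP1;2 with scaling by total counts (adjusted p = 0.34). Exchanging the phyB labels turns the sign of each phyB change between 12 h and 24 h.

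Compared per length, the seed forms made up most of the family's transcripts in all groups but WT at 24 h and 48 h. By the authors' mean FPKM (fragments scaled for transcript length and library size), ALPHA-TIP stood at 266 in hid1 at 48 h, 1349.7 in phyB and 39.8 in WT. GAMMA-TIP2 stood at 3.82 FPKM in hid1, 0.272 in phyB and 545 in WT. Both seed forms together held 84.4% of the summed FPKM of the 35 aquaporins in hid1 at 12 h, 55.8% at 24 h and 59.0% at 48 h. In phyB they held 78.6% at 12 h, 91.8% at 24 h and 95.4% at 48 h. In WT they held 86.4% at 12 h, 45.5% at 24 h and 3.37% at 48 h. ALPHA-TIP was the most abundant of the 35 in 8 of the 9 groups, and GAMMA-TIP2 was in WT at 48 h, followed there by PIP2;7 (533 FPKM), PIP1;2 (372), PIP2;1 (143) and GAMMA-TIP (138). FPKM means carry no replicates here, so neighbours in this order were not tested. The family total was 867 FPKM in hid1, 2675 in phyB and 2708 in WT at 48 h. FPKM scales to library totals, and the order of phyB and WT depended on that: in counts the 35 genes summed to 3226 ± 181 per 1e+06 counts in phyB and 3401 ± 280.1 in WT at 48 h, but to 4616 ± 384 CPM in phyB and 3042 ± 394 CPM in WT with TMM scaling (SD, n = 3 each).

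**Figure D4:**
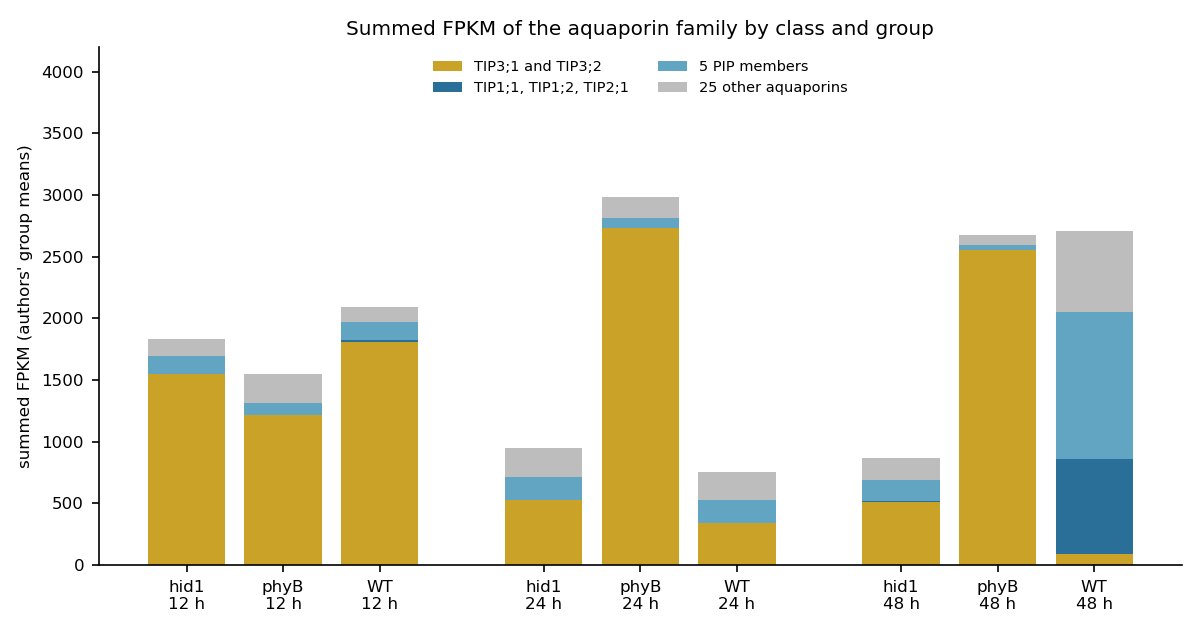
Summed FPKM of the 35 aquaporins in each group, from the authors' group means, stacked by class, with no error bars since the means have no replicates. The seed forms fill most of the bar in phyB at 48 h (95.4%) and little of it in WT at 48 h (3.37%).

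Within a library the log2 ratio of the seed forms to the 3 vegetative TIPs, per length, needs no scaling between libraries. It was 9.24, 9.63 and 7.60 in hid1 at 12 h, at least 11.69, 11.81 and 11.96 at 24 h and 6.82, 6.42 and 7.17 at 48 h. In phyB it was at least 12.80, 12.96 and 12.92 at 12 h, at least 14.05, 14.12 and 14.17 at 24 h and 12.80, 11.70 and 14.34 at 48 h, the last of these a lower bound. In WT it was 6.10, 9.51 and 7.47 at 12 h, 11.04, 11.02 and 11.15 at 24 h, where the first and last are lower bounds, and -3.61, -2.84 and -2.81 at 48 h. WT at 48 h was the only group below 0, so the only one in which the vegetative TIPs outnumbered the seed forms. With all 8 vegetative forms in the denominator the mean was 1.52 in hid1 and 5.93 in phyB, against -4.45 in WT at 48 h.

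**Figure D5:**
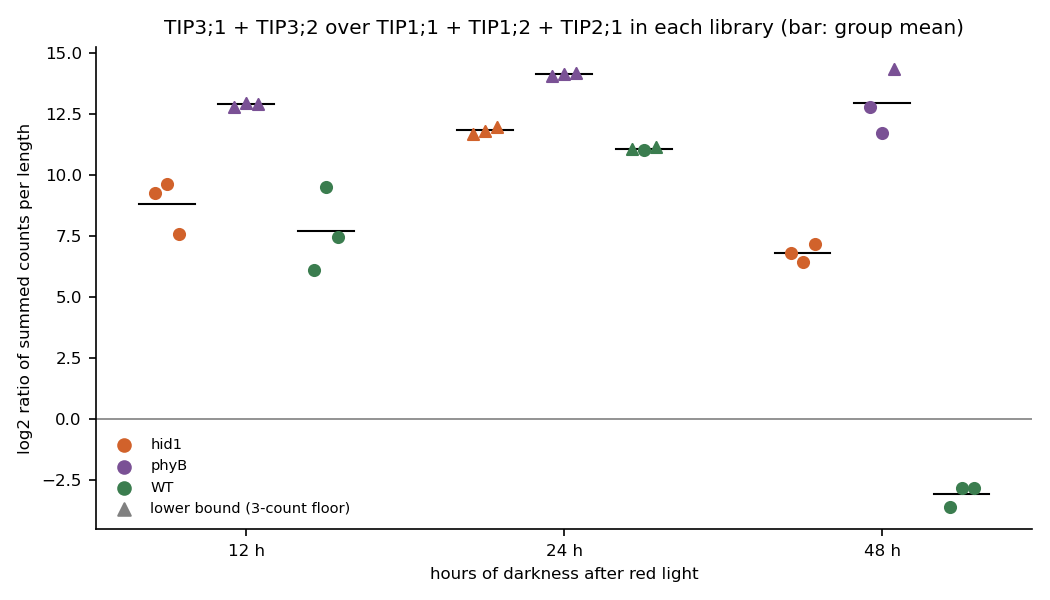
Log2 ratio of ALPHA-TIP and BETA-TIP to GAMMA-TIP, GAMMA-TIP2 and DELTA-TIP, per length, in each library at 12, 24 and 48 h, with triangles for lower bounds where the denominator held 3 or fewer counts. All libraries lie above 0 except the WT libraries at 48 h, which lie between -3.61 and -2.81.

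Of the 35 aquaporins, 28 passed the filter on low counts and 2 had no count in any library. Among the 25 outside the 10, 15 reached a mean of 10 CPM in a group, and 12 of these 15 were highest in WT at 48 h. Of the 12, 5 reached that mark only in WT at 48 h and so had to be highest there, and of the 10 that reached it in another group 7 were. Among 14500 genes outside the family that reached the mark, 30.1% were highest in WT at 48 h. The 12 include PIP1;3 (11.6 ± 2.17 CPM in hid1, 0.637 ± 0.169 CPM in phyB and 157 ± 19.1 CPM in WT at 48 h, SD, n = 3 each), PIP1;4, PIP1;5, PIP2;4, PIP2;6, PIP2;8, TIP2;2, TIP4;1, NIP1;1, SIP1;1, SIP2;1 and NIP5;1, a channel known for boric acid uptake. TIP4;1, a tonoplast form, had 0.426 ± 0.149 CPM in hid1, 0.0502 ± 0.0869 CPM in phyB and 60.2 ± 13.1 CPM in WT at 48 h (SD, n = 3 each). PIP2;4 had 1 count in the 3 hid1 libraries at 48 h, against 3466 counts in WT, a ratio with a 95% counting interval of 506 to 111000. Of the 18 tested outside the 10, 2 were higher and 15 lower in hid1 than in WT at 48 h, and 2 higher and 14 lower in phyB, against 36.3% and 43.0% of all genes for hid1 and 40.0% and 49.4% for phyB. With scaling by total counts 1 was higher and 17 lower in phyB, against 5317 and 12958 of the 20465 genes tested. With TMM scaling the 2 higher aquaporins were NIP1;2 and NIP2;1 in both comparisons. NIP1;2 had 65.6 ± 4.46 CPM in hid1 (log2 difference 0.51 ± 0.09 SE, adjusted p = 2.5e-05, edgeR) and 59.6 ± 3.56 CPM in phyB (log2 difference 0.37 ± 0.10 SE, adjusted p = 0.000966, but -0.31, adjusted p = 0.00278, with scaling by total counts), against 46.2 ± 2.52 CPM in WT at 48 h (SD, n = 3 each). NIP2;1 had 5.44 ± 0.342 CPM in hid1 (log2 difference 0.76 ± 0.14 SE, adjusted p = 1.82e-05, edgeR) and 46.3 ± 5.39 CPM in phyB (log2 difference 3.85 ± 0.12 SE, adjusted p = 1.35e-21), against 3.17 ± 0.581 CPM in WT. PIP2;5, highest in phyB at 24 h with 12.8 ± 0.842 CPM, was lower in hid1 than in WT at 48 h (log2 difference -0.29 ± 0.12 SE, adjusted p = 0.0368, edgeR). That call did not hold with only the groups compared (adjusted p = 0.085), nor without WT replicate 1 (0.168) or 2 (0.0517) or hid1 replicate 2 (0.179) or 3 (0.0902). In phyB PIP2;5 did not pass (log2 difference -0.14 ± 0.13 SE, adjusted p = 0.313), but did with scaling by total counts (log2 -0.82, adjusted p = 9.57e-07) and without phyB replicate 1 (log2 -0.35, adjusted p = 0.0152).

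The proton pumps that energise the same membranes did not follow the aquaporins alike. Of 27 tested genes of the vacuolar pumps, 27 were lower in hid1 than in WT at 48 h, and 1 was higher and 24 lower in phyB, against 36.3% and 43.0% of all genes for hid1 and 40.0% and 49.4% for phyB. The higher one, VHA-a2, named after its values were seen, had a log2 difference of 0.66 in phyB (adjusted p = 2.53e-11, edgeR) and of -0.02 (adjusted p = 0.759) with scaling by total counts. Under that scaling 0 of the 27 were higher and 26 lower in phyB, against 5317 and 12958 of the 20465 genes tested. AVP1, the vacuolar proton pyrophosphatase, had 1322 ± 17.2 CPM in hid1 (log2 -0.97 ± 0.07 SE, adjusted p = 2.65e-13, edgeR) and 487 ± 11.1 CPM in phyB (log2 -2.41 ± 0.07 SE, adjusted p = 2.89e-22), against 2594 ± 179 CPM in WT (SD, n = 3 each). VHA-A, the catalytic subunit of the vacuolar ATPase, had 409.8 ± 8.86 CPM in hid1 (log2 -1.03 ± 0.06 SE, adjusted p = 2.44e-15, edgeR) and 266 ± 12.1 CPM in phyB (log2 -1.65 ± 0.06 SE, adjusted p = 1.88e-20), against 835 ± 59.7 CPM in WT. Of the 9 tested plasma membrane proton ATPases, 5 were higher and 2 lower in hid1 than in WT at 48 h, and 5 higher and 4 lower in phyB (4 and 4 with scaling by total counts). With TMM scaling the phyB shares lie near those of all genes. AHA1 and AHA2 went opposite ways. AHA1 had 789 ± 53.5 CPM in hid1 (log2 0.28 ± 0.08 SE, adjusted p = 0.00278, edgeR) and 1209 ± 69.2 CPM in phyB (log2 0.89 ± 0.08 SE, adjusted p = 4.79e-11, but 0.21, adjusted p = 0.0132, with scaling by total counts), against 650.4 ± 35.2 CPM in WT. AHA2 had 314 ± 17.6 CPM in hid1 (log2 -1.90 ± 0.12 SE, adjusted p = 2.43e-14, edgeR) and 108 ± 5.00 CPM in phyB (log2 -3.44 ± 0.12 SE, adjusted p = 4.87e-20), against 1177 ± 171 CPM in WT. At 12 h the vacuolar pumps did not go with the aquaporins in phyB, where 16 of the 27 were higher than in WT and 7 lower, against 30.0% and 34.2% of all genes, while all 10 aquaporins were lower. With the phyB labels exchanged 14 of the 27 were higher and 6 lower, beside 2 of the 10 aquaporins higher and 8 lower. The shares of all genes under the exchange are not given, so these counts have no background beside them.

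The genes for the contents of the storage vacuole were mostly higher in both mutants at 24 h and 48 h, as the seed forms were, but not at 12 h. Of 14 genes of storage vacuole cargo and its processing, 12 were higher and 2 lower in hid1 than in WT at 48 h, and 12 higher and 2 lower in phyB, against 36.3% and 43.0% of all genes for hid1 and 40.0% and 49.4% for phyB. With scaling by total counts 11 were higher and 3 lower in phyB, against 5317 and 12958 of the 20465 genes tested. CRA1, a 12S globulin, had 29064 ± 3662 CPM in hid1 (log2 2.46 ± 0.18 SE, adjusted p = 1.47e-12, edgeR) and 178055 ± 12600.0 CPM in phyB (log2 5.07 ± 0.20 SE, adjusted p = 5.64e-19), against 5287 ± 1412 CPM in WT (SD, n = 3 each). The lower genes, named here after their values were seen, were vacuolar processing enzymes. ALPHA-VPE was lower in both mutants, GAMMA-VPE was lower in hid1 and higher in phyB (log2 0.47, but -0.21 with scaling by total counts), DELTA-VPE was lower in phyB and higher in hid1, and BETA-VPE, the seed form of that enzyme, was higher in both. At 24 h 12 of the 14 were higher in hid1 than in WT and 0 lower, and in phyB 13 were higher and 1 lower, against 8.46% and 6.87% of all genes for hid1 and 31.8% and 34.6% for phyB. At 12 h 5 of the 14 were higher and 0 lower in hid1, where 0 seed forms were higher and 1 lower, against 7.49% and 5.91% of all genes. In phyB at 12 h 3 were higher and 8 lower, against 30.0% and 34.2%, and with the labels exchanged 8 were higher and 2 lower. The shares of all genes are not given for exchanged labels. Of the 8 seed maturation regulators 4 were tested, ABI3, ABI5, FUS3 and EEL. At 12 h 0 were higher and 3 lower in hid1 than in WT, against 7.49% and 5.91% of all genes. In phyB 1 was higher and 2 lower at 12 h, against 30.0% and 34.2%, and 3 higher and 1 lower with the labels exchanged. All 4 were higher in both mutants at 48 h, against 36.3% of all genes for hid1 and 40.0% for phyB. ABI3, a B3 transcription factor, had 429 ± 6.04 CPM in hid1 (log2 2.92 ± 0.08 SE, adjusted p = 1.93e-21, edgeR) and 785 ± 56.6 CPM in phyB (log2 3.79 ± 0.08 SE, adjusted p = 1.54e-24), against 56.8 ± 4.56 CPM in WT. At 24 h ABI3 in hid1 did not pass (log2 0.06 ± 0.07 SE, adjusted p = 0.668, edgeR), while both seed aquaporins were higher in hid1 at that time. At 12 h in phyB, where both seed aquaporins were lower, ABI3 was higher than in WT (log2 0.26 ± 0.07 SE, adjusted p = 0.00355, edgeR). With the labels exchanged it was also higher (log2 0.30, adjusted p = 0.000958), as both seed aquaporins then were. The endosperm and seed identity sums given above were highest in phyB and lowest in WT at 48 h, as the seed forms were, although the endosperm members split in phyB. CRA1 alone made up most of the seed identity sum at 48 h. All 5 genes of that list were higher in each mutant than in WT at 48 h, against 36.3% of all genes for hid1 and 40.0% for phyB. The part of the endosperm and seed identity genes in the ALPHA-TIP and BETA-TIP values was not tested. At 12 h, where both seed forms were lower in phyB than in WT, the seed identity genes summed to 33640.0 to 52260.0 CPM in hid1. Their sum was 9927 to 10690.0 CPM in phyB and 36660.0 to 43060.0 CPM in WT. With the labels exchanged the phyB sum at 12 h was 44710.0 to 49050.0 CPM, above WT, as both seed forms then were.

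Over the 9 group means of log2 CPM, the genes most like ALPHA-TIP among 11570 compared were AT1G54870 (Pearson r = 0.994), AT5G55750 (0.992), AT4G29070 (0.992), AT2G35540 (0.990) and SMP1 (0.989). Those most like GAMMA-TIP were AT5G44020 (r = 0.999), AT1G12080 (0.999), LRX1 (0.995), UCC2 (0.993) and PORA (0.993). The correlations describe 9 groups that share genotypes and times. Between the 8 vegetative forms r ran between 0.713 and 0.992 over 28 pairs, and between the seed and vegetative forms it ran between -0.909 and -0.415 over 16 pairs.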

How the data were processed

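Whole seeds gave 27 poly(A) RNA libraries (TruSeq, paired Illumina reads), 3 biological replicates in each of 9 groups named by genotype and time in the labels. The authors deposited whole-number counts per gene for each library and 1 mean FPKM per gene and group. Per the submitters' processing notes the tools were fastp, HISAT2 2.1.0 and SAMtools 1.6 with genome build TAIR10. Which program counted the reads, whether strand was used and how multiply matching reads were handled are all not given in the sources used here.

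Counts were fitted in edgeR 4.0.16 (limma 3.58.1, R 4.3.3) by the quasi-likelihood test after filterByExpr and TMM scaling, with 1 coefficient per group, 27 libraries and 18 residual degrees of freedom. Of 33612 genes, 5633 had no count and 20465 were tested. P-values were two-sided and adjusted by Benjamini-Hochberg over all genes tested, with a threshold of 0.05, in 17 comparisons. Each SE of a log2 difference is the size of that difference divided by the square root of the F value of its test. It is not a fitted standard error, and where counts are few it can lie under the counting error. CPM are TMM-scaled. Where a group held 3 or fewer counts of a gene, a ratio with a 95% counting interval, or a bound that gives the group 3 counts as a floor, replaced the fitted fold change. Such intervals pool the 3 libraries of a group, so they cover counting error only and leave out the spread between replicates. The reads also carry no molecular identifiers. Levels per length use the length implied by the deposited counts and FPKM. The fit was tested on simulated data.

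The 10 genes and the lists were chosen with earlier results of these data known. All 10 are named, as are other aquaporins that reach 10 CPM in a group mean, up to 4 genes of each pump, cargo and regulator list by mean CPM, and the 5 genes most like ALPHA-TIP and GAMMA-TIP. Alternatives were RLE scaling, scaling by total counts, no filter, DESeq2 1.42.0, the replicate block, leaving out each replicate, fitting the compared groups alone, raw counts or all 8 vegetative forms in the seed ratio, and, chosen after seeing the data, exchanging or leaving out phyB at 12 h and 24 h.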

Additional observations from a re-analysis of the deposited data

Results flagged for a closer look

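The difference between mutant and WT was not the same at 48 h and at 12 h, by the interaction term of edgeR's fit. For hid1 the log2 difference at 48 h minus that at 12 h was 2.84 for ALPHA-TIP, 2.83 for BETA-TIP, -5.99 for GAMMA-TIP, -5.50 for GAMMA-TIP2, -6.84 for DELTA-TIP, -3.997 for PIP1;1, -2.37 for PIP1;2, -3.88 for PIP2;1, -4.34 for PIP2;2 and -2.63 for PIP2;7, with adjusted p between 4.28e-15 and 1.39e-05. For phyB it was 6.24 for ALPHA-TIP, 6.90 for BETA-TIP, -2.99 for PIP1;1, -2.23 for PIP1;2, -4.16 for PIP2;1, -4.11 for PIP2;2 and -4.83 for PIP2;7, with adjusted p between 1.95e-21 and 0.0239. With scaling by total counts the phyB values were 5.41 for ALPHA-TIP, 6.07 for BETA-TIP and between -5.65 and -3.05 for the 5 PIPs. The seed forms moved upward and the vegetative forms listed moved downward in both sets, which share their WT libraries. No phyB value is given for the 3 vegetative TIPs, whose counts in phyB at 12 h were 3 or fewer. The PIP2;2 result in phyB did not pass without phyB 12 h replicate 1 (adjusted p = 0.0537) or replicate 3 (adjusted p = 0.176), by edgeR.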

How the results depend on the processing

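At 48 h every fitted log2 difference of the 10 genes between a mutant and WT kept its direction under the alternatives run. GAMMA-TIP in phyB, at the 3-count floor there, was left out of that check. The count of genes called between hid1 and WT at 12 h, 3, was 1 in DESeq2, 6 without a filter, 1 with only the groups compared, and 1 to 6 with 1 replicate left out. For phyB at 48 h against 24 h the count, 3, was 5 in DESeq2 and 5 with scaling by total counts. With all 8 vegetative forms below the line the mean log2 seed ratio was 3.36 in hid1, 3.69 in phyB and 3.48 in WT at 12 h, 1.52, 5.20 and 0.89 at 24 h, and 1.52, 5.93 and -4.45 at 48 h. With phyB at 12 h and 24 h exchanged, the log2 difference of phyB from WT at 12 h was 0.56 for ALPHA-TIP and 0.42 for BETA-TIP, and that of hid1 from phyB was -0.65 and -0.98. For phyB at 24 h against 12 h it was then -1.04 for ALPHA-TIP, -2.09 for BETA-TIP, -0.35 for PIP1;1, 0.21 for PIP1;2, -0.99 for PIP2;1, -0.032 for PIP2;2 and 0.65 for PIP2;7, and for 48 h against 24 h 0.97 for ALPHA-TIP and 0.22 for PIP1;1. The signs at 24 h against 12 h turn by construction. Scaling by total counts turned PIP1;1 in hid1 (24 h against 12 h, 0.13), PIP2;2 in phyB (24 h against 12 h, -0.056) and PIP2;1 in phyB (48 h against 24 h, -0.23), none of them called. For phyB against WT at 48 h it also turned NIP1;2 (-0.31), VHA-a2 (-0.022) and GAMMA-VPE (-0.21), which were called higher with TMM. With 1 replicate left out, uncalled values that changed sign ran between -0.010 and 0.20 (PIP2;7, hid1 against WT, 12 h), -0.11 and 0.085 (PIP2;7, 24 h), -0.15 and 0.11 (PIP1;1, hid1 against phyB, 48 h), -0.079 and 0.75 (PIP2;1, WT 24 h against 12 h), -0.56 and 0.60 (PIP2;2, phyB 24 h against 12 h) and -0.021 and 0.43 (PIP2;1, phyB 48 h against 24 h). The cause was not tested.

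Scaling by total counts moved the median log2 difference of all genes by -0.679 for phyB against WT at 48 h, where the share of calls that were higher was 29.1% in place of 44.8%, and by 0.67 for hid1 against phyB at 48 h (77% in place of 52%). It moved the share by over 10 points as well for phyB against WT at 24 h (32.4%, 47.9% with TMM) and 12 h (56.7%, 46.7%), hid1 against WT at 24 h (37.9%, 55.2%), hid1 against phyB at 12 h (41.4%, 53.4%) and 24 h (64.3%, 52.1%), 24 h against 12 h in WT (71.9%, 50.5%) and hid1 (76%, 50.9%), 48 h against 24 h in phyB (19.9%, 50.2%) and the change of the phyB difference (29.4%, 48.4%). Same-numbered libraries of compared groups correlated at -0.198 to 0.366 in their deviations from the group means. All pairs passed 0.1 in 2 of 15 comparisons, hid1 against WT at 12 h and at 48 h. Differently numbered libraries were not correlated, so whether replicate numbers pair the libraries was not tested. Over all genes, 2741 passed between hid1 and WT at 12 h and 1787 without hid1 replicate 3, and 3137 passed at 24 h and 1989 without WT replicate 1. With the replicate block the count between hid1 and WT at 12 h was 3, and no call of the 10 genes changed. Counts of 3 or fewer per group limit what can be said of the vegetative TIPs in phyB before 48 h and in hid1 at 24 h.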
